A study of Sus scrofa with 4 samples.

Results

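The genes described here encode the machinery of the cell division cycle. They were chosen by symbol: 40 genes were named, of which 13 act in DNA replication, 23 in mitosis and 4 as cyclins of the G1 phase. A gene was measured when it had at least 10 counts in 1 or more libraries, which left 39 of the 40, among 18168 measured genes in all. CDC6, which helps load the replicative helicase onto DNA, was left out with at most 7 counts, while CDC20 and FOXM1 lay just inside the limit with at most 13 and 15 counts.

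RNA of pig kidney was sequenced in 4 libraries, 1 for each group. The 4-week graft was a GalT-/-;hCD39;hCD55 kidney (CD39/CD55 below) taken 4 weeks after transplantation. The 6-week graft was a GalT-/-;hCD39;hCD46;hCD55;TBM kidney (CD39/CD46/CD55/TBM below) taken 6 weeks after transplantation. The other two groups were untransplanted kidneys, 1 of each genotype. Every group shares the loss of GalT, whose enzyme makes the alpha-Gal sugar antigen, together with human CD39, which degrades extracellular ATP and ADP, and human CD55, which restrains complement. Pigs of the CD39/CD46/CD55/TBM genotype add human CD46, another complement regulator, and thrombomodulin (TBM), which turns thrombin towards anticoagulation. The recipients were non-human primates, and between the grafts genotype, weeks after transplantation and recipient cannot be told apart. The labels name neither the promoters of the transgenes nor the animals.

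A cell that divides first passes from G1 into S phase, driven by D-type cyclins with CDK4 and CDK6 and then by E-type cyclins with CDK2. In S phase it needs deoxynucleotides and a helicase built from MCM proteins, and many of these genes are switched on by E2F factors. Most mitotic genes follow in G2 under MuvB complexes with MYBL2 and FOXM1. Few tubule cells of an adult kidney divide at rest, and surviving tubule cells can re-enter the cycle after injury.

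Total counts were 11566041 in the 4-week graft, 10346863 in the 6-week graft, 14092905 in the untransplanted kidney of CD39/CD55 and 13226372 in the untransplanted kidney of CD39/CD46/CD55/TBM. RN18S and 3 unplaced loci took 22.4% and 18.9% of counts in the 4-week and 6-week grafts, against 10.7% and 12.6% in the untransplanted CD39/CD55 and CD39/CD46/CD55/TBM kidneys. Among kidney markers, LRP2, an endocytic receptor of the proximal tubule, had 2622 counts in the 4-week graft against 23515 untransplanted in CD39/CD55, and 831 in the 6-week graft against 20999 untransplanted in CD39/CD46/CD55/TBM. UMOD, the uromodulin gene of the thick ascending limb, had 6945 counts in the 4-week graft against 45070 untransplanted in CD39/CD55, and 2214 in the 6-week graft against 15092 untransplanted in CD39/CD46/CD55/TBM. SLC12A1, another loop and distal tubule marker, had 1134 counts in the 4-week graft against 1232 untransplanted in CD39/CD55. It had 1550 in the 6-week graft against 1499 untransplanted in CD39/CD46/CD55/TBM. Of the 4 listed loop and distal tubule markers, SLC12A3 alone fell in edgeR's test of grafts against untransplanted kidneys, and none rose. UMOD missed the threshold there (adjusted p = 0.0529, edgeR). SLC22A6, a proximal tubule organic anion transporter, had 0 counts in the 6-week graft, and the collecting duct channel AQP3 had 0 in all libraries but the 4-week graft. Many cell cycle genes had fewer than 50 counts in a library, so counting error sets much of the precision. In bulk RNA, fewer cells of a type and less RNA per cell cannot be told apart. Ratios use counts scaled by edgeR's TMM factors, and levels are given as CPM (counts relative to library size) after that scaling. Between 2 single libraries a gene is called higher or lower when the ratio is at least 2-fold and its exact 95% counting interval excludes equality. Such a call has no replicate check and no p-value.

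**Figure D1:**
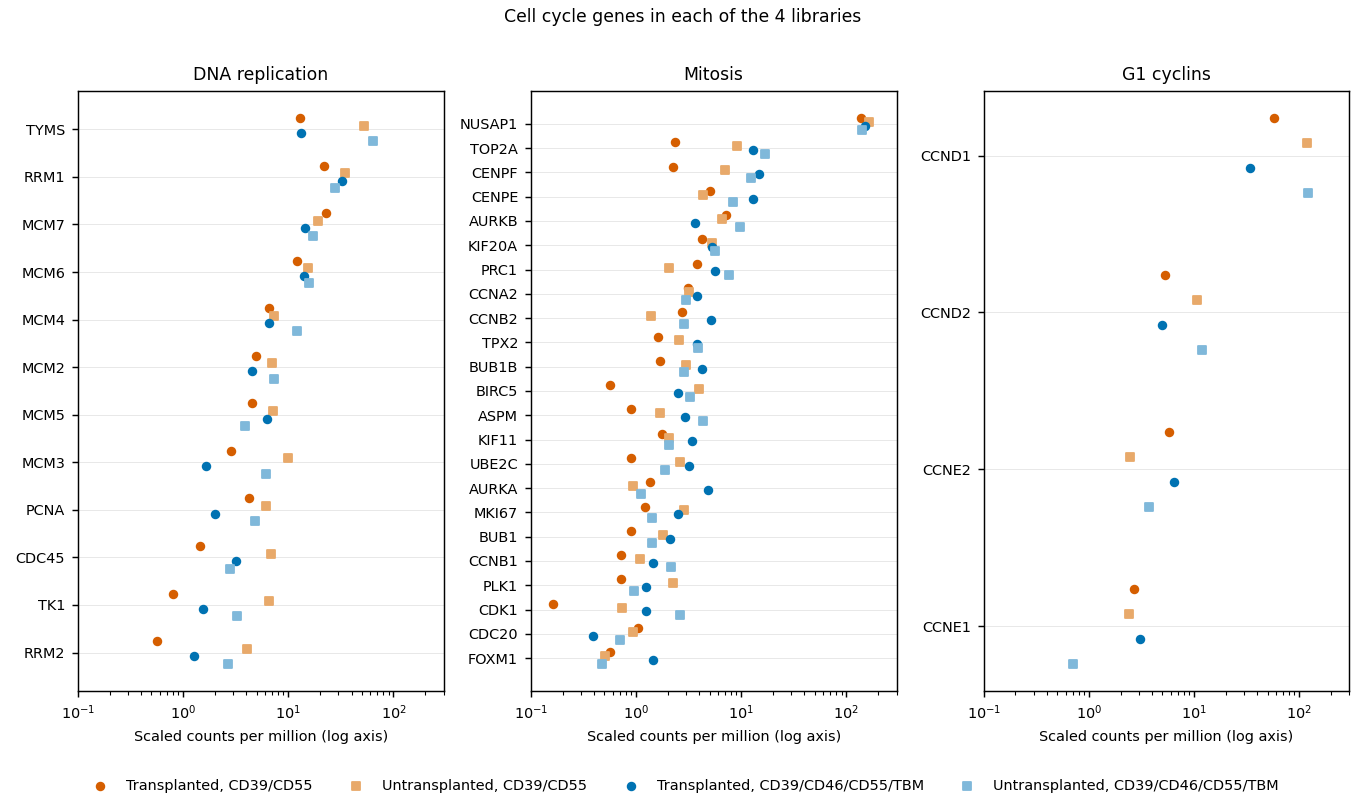
Level of each of the 39 measured cell cycle genes in the 4 libraries, as TMM-scaled CPM on a log axis, ordered within each panel by level. Dark circles are grafts and light squares untransplanted kidneys, orange is CD39/CD55 and blue CD39/CD46/CD55/TBM; both circles lie left of both squares for TYMS, TK1, RRM2 and MCM3, and for BIRC5, TOP2A and CENPF the circle of the 4-week graft stands alone at the low end.

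Among DNA replication genes, 3 of the 4 that encode enzymes or enzyme subunits supplying deoxynucleotides, TYMS, RRM2 and TK1, were low in both grafts. TYMS, thymidylate synthase, which makes the thymidine nucleotide of DNA (chromosome 6, 105642730 to 105660279, Sscrofa11.1), had 161 counts in the 4-week graft against 721 untransplanted in CD39/CD55, and 138 in the 6-week graft against 808 untransplanted in CD39/CD46/CD55/TBM. Both grafts lay far below both untransplanted kidneys. TYMS fell in edgeR's quasi-likelihood test of the 2 grafts against the 2 untransplanted kidneys, with a fold change of -2.14 on the log2 scale (SE 0.41, adjusted p = 0.0145). It passed in all 9 alternative fits, with adjusted p from 4.1e-05 to 0.0204.

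TYMS was the 1 of 39 cell cycle genes that fell, and none rose. Over all 18168 genes 1.24% rose and 2.71% fell. At an unadjusted p under 0.05, 6 of the 39 were lower and none higher, namely 4 replication genes and 2 G1 cyclins, where 10.7% of all genes were lower and 8.99% higher. ENOSF1, whose annotated span lies 197 bases from TYMS, had 368 counts in the 4-week graft against 1405 untransplanted in CD39/CD55, and 154 in the 6-week graft against 948 untransplanted in CD39/CD46/CD55/TBM. It fell too, with a fold change of -1.99 on the log2 scale (SE 0.46, adjusted p = 0.0312, edgeR). Whether counting used strand is unknown, so reads past the end of either gene cannot be told apart.

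RRM2, the small subunit of ribonucleotide reductase, had 7 counts in the 4-week graft against 56 untransplanted in CD39/CD55, and 13 in the 6-week graft against 34 untransplanted in CD39/CD46/CD55/TBM. TK1, the cytosolic thymidine kinase, had 10 counts in the 4-week graft against 91 untransplanted in CD39/CD55, and 16 in the 6-week graft against 41 untransplanted in CD39/CD46/CD55/TBM. For both genes the grafts lay below the untransplanted kidneys without overlap. The log2 ratio of TK1 was -2.97 (95% interval -4.14 to -2.09) for CD39/CD55 and -1.04 (95% interval -2.00 to -0.20) for CD39/CD46/CD55/TBM, and that of RRM2 was -2.76 (95% interval -4.23 to -1.71) and -1.06 (95% interval -2.14 to -0.14) in the same order of genotypes. Over both genotypes edgeR gave fold changes of -2.07 on the log2 scale (SE 0.66, adjusted p = 0.103) for TK1 and -1.90 on the log2 scale (SE 0.70, adjusted p = 0.156) for RRM2, neither past the threshold. With the genotype as a block TK1 passed, at an adjusted p of 0.0247, and over 9 alternative edgeR, DESeq2 and limma voom fits its adjusted p lay between 0.0247 and 0.634, against 0.0543 to 0.634 for RRM2. AFMID, whose annotated span lies 168 bases from TK1, had 68 counts in the 4-week graft against 178 untransplanted in CD39/CD55, and 45 in the 6-week graft against 128 untransplanted in CD39/CD46/CD55/TBM, and its log2 ratios were -1.23 for CD39/CD55 and -1.21 for CD39/CD46/CD55/TBM. RRM1, the large subunit of the reductase, had 269 counts in the 4-week graft against 471 untransplanted in CD39/CD55, and 337 in the 6-week graft against 353 untransplanted in CD39/CD46/CD55/TBM. Its groups overlapped, and its log2 ratios were -0.66 for CD39/CD55 and 0.22 for CD39/CD46/CD55/TBM.

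MCM2 to MCM7 encode the ring of the replicative helicase. MCM3 (chromosome 7, 46084648 to 46104425) had 35 counts in the 4-week graft against 136 untransplanted in CD39/CD55, and 17 in the 6-week graft against 77 untransplanted in CD39/CD46/CD55/TBM. Its grafts lay below its untransplanted kidneys, with log2 ratios of -1.79 (95% interval -2.39 to -1.26) for CD39/CD55 and -1.86 (95% interval -2.74 to -1.12) for CD39/CD46/CD55/TBM. Over both genotypes edgeR gave a fold change of -1.83 on the log2 scale (SE 0.55, adjusted p = 0.0882), which missed the threshold. With the genotype as a block MCM3 passed, and over the 9 alternative fits its adjusted p lay between 0.00998 and 0.484. MCM7 had 284 counts in the 4-week graft against 261 untransplanted in CD39/CD55, and 148 in the 6-week graft against 219 untransplanted in CD39/CD46/CD55/TBM, and its groups overlapped. Besides MCM3 no subunit was called in either genotype: the ratios of the other 5 lay between -0.65 and 0.27 for CD39/CD55 and between -0.87 and 0.69 for CD39/CD46/CD55/TBM. Summed over the 6 subunits, levels were 53.9 CPM (exact Poisson 95% interval 49.9 to 58.2) in the 4-week graft and 65.7 CPM (61.5 to 70.2) in the untransplanted kidney of CD39/CD55. They were 47.4 CPM (43.3 to 51.8) in the 6-week graft and 62.3 CPM (58.0 to 66.8) in the untransplanted kidney of CD39/CD46/CD55/TBM. The log2 ratios of these sums were -0.29 for CD39/CD55 and -0.39 for CD39/CD46/CD55/TBM. Scaled by total count without the most abundant loci and mitochondrial genes, they were -0.05 (-0.20 to 0.10) and -0.25 (-0.41 to -0.09) in the same order.

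CDC45, which joins the MCM ring to make the active helicase, had 18 counts in the 4-week graft against 94 untransplanted in CD39/CD55, and 33 in the 6-week graft against 35 untransplanted in CD39/CD46/CD55/TBM. PCNA, the sliding clamp of the DNA polymerases, had 52 counts in the 4-week graft against 85 untransplanted in CD39/CD55, and 21 in the 6-week graft against 61 untransplanted in CD39/CD46/CD55/TBM. CDC45 was called lower in CD39/CD55, at -2.20 (95% interval -3.05 to -1.50), but not in CD39/CD46/CD55/TBM, at 0.21. PCNA was called lower in CD39/CD46/CD55/TBM, at -1.23 (95% interval -2.04 to -0.51), but not in CD39/CD55, at -0.55.

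In each genotype 5 of 12 replication genes were called lower in the graft and none higher, and TYMS, RRM2, TK1 and MCM3 were called lower in both. Over all genes 13.7% were called lower and 13.2% higher for CD39/CD55, 16.3% lower and 15.9% higher for CD39/CD46/CD55/TBM, and 7.63% lower in both. The median log2 ratio of replication genes was -0.66 for CD39/CD55 and -0.78 for CD39/CD46/CD55/TBM, beside 0.02 and 0.01 over all genes. For 8 of the 12 both grafts lay below both untransplanted kidneys and for none above, where 25.5% of all genes lay below and 26.2% above. Scaled by total counts, 3 of 12 were called lower in CD39/CD46/CD55/TBM, with TK1 and RRM2 just under 2-fold there.

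Marker sums of leukocytes and proximal tubule were lower in both grafts. So were those of podocytes, loop and distal tubule, collecting duct, endothelium, erythroid cells, and fibroblast and mural cells. Abundant genes carry such sums, as ATP6V1B1 does for collecting duct, and single markers in these lists went the other way. FXYD4, PDGFRB and SLC12A1 were higher in both grafts than in the untransplanted kidney of the same genotype. AQP2, CALB1, DCN and ALAS2 were higher in the 4-week graft only, and VWF, KDR and CDH5 in the 6-week graft only. The 8 macrophage markers summed to 4.84 and 8.79 CPM in the 4-week and 6-week grafts, against 64.9 and 59.2 CPM in the untransplanted CD39/CD55 and CD39/CD46/CD55/TBM kidneys. Of these 6 fell in edgeR's test, and C1QC was at 0 in both grafts. The 4 pan-leukocyte markers summed to 7.19 and 8.79 CPM in the same grafts against 26.6 and 22.0 CPM in the same untransplanted kidneys, where CD52 was at 0 in both grafts and 1 of 4 fell. The 6 T and NK cell markers summed to 1.21 and 1.74 CPM in the grafts against 7.50 and 3.79 CPM untransplanted, and none of the 3 measured ones passed. CD3D had no count in either graft, and its highest untransplanted count was 3. B and plasma cell markers summed to 2.75 CPM (1.90 to 3.84) in the 4-week graft. The untransplanted CD39/CD55 kidney had 3.57 CPM (2.64 to 4.72), so these counting intervals overlapped. The 6-week graft had 0.58 CPM of them against 3.87 CPM untransplanted in CD39/CD46/CD55/TBM. The 8 proximal tubule markers summed to 5644 and 2906 CPM in the grafts against 10026 and 11829 CPM untransplanted, with 6 of 8 falling and SLC22A6 at 0 in the 6-week graft. The part of these cells in the replication result was not tested.

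**Figure D2:**
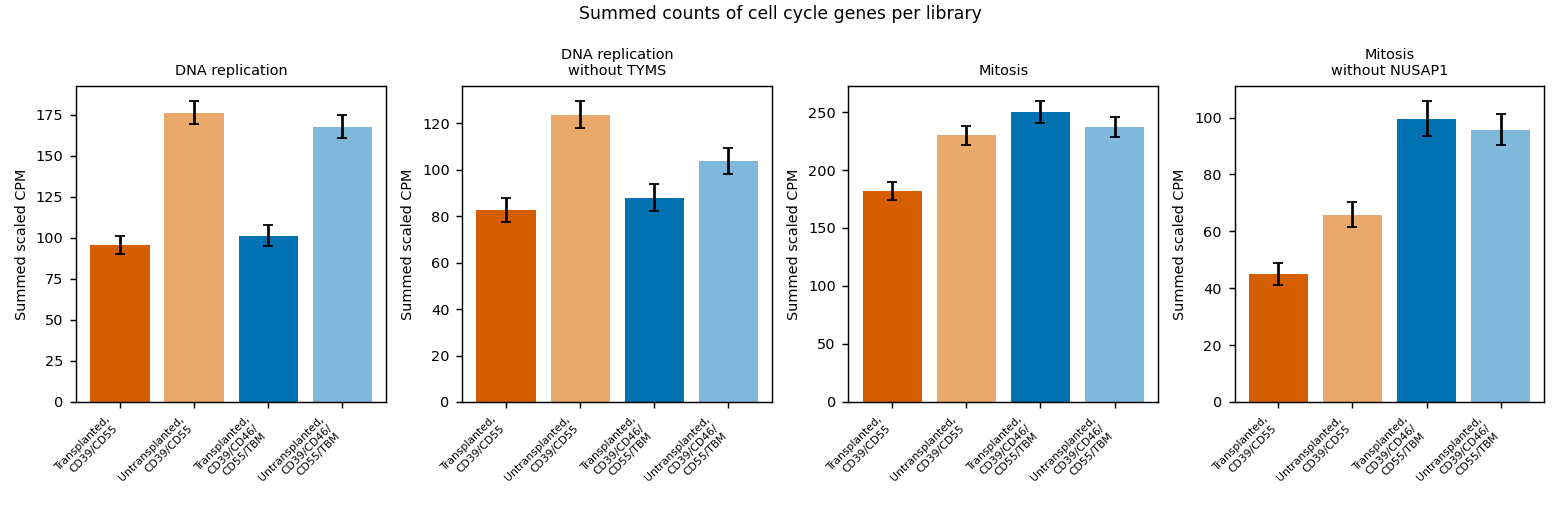
Summed TMM-scaled CPM of replication and mitosis genes in each library, with and without the gene that has the most counts; a bar is 1 library and error bars are exact Poisson 95% intervals for counting error. Replication genes summed to 95.7 and 101 CPM in the 4-week and 6-week grafts against 176 and 168 CPM in the untransplanted CD39/CD55 and CD39/CD46/CD55/TBM kidneys, while the mitosis sum without NUSAP1 was lowest in the 4-week graft, at 44.9 CPM.

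Without TYMS the replication sums were 82.7 CPM (77.7 to 87.9) in the 4-week graft and 124 CPM (118 to 130) in the untransplanted kidney of CD39/CD55. They were 88.0 CPM (82.3 to 93.9) in the 6-week graft and 104 CPM (98.2 to 109) in the untransplanted kidney of CD39/CD46/CD55/TBM. The log2 ratio of the sums was -0.88 with and -0.58 without TYMS in CD39/CD55, and -0.73 with and -0.24 without it in CD39/CD46/CD55/TBM. Scaled by total count without the most abundant loci and mitochondrial genes, the ratio without TYMS was -0.35 (-0.46 to -0.23) in CD39/CD55. In CD39/CD46/CD55/TBM it was -0.09 (-0.22 to 0.03), where the interval included 0.

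Other replication genes came from a list of 45, of which 44 were measured. In edgeR's test 3 of them fell and none rose, beside 2.71% and 1.24% over all genes. For 13 of the 44 both grafts lay above both untransplanted kidneys and for 10 below, beside 26.2% and 25.5% over all genes. PRIM2, the large subunit of the primase that starts new strands, had 363 counts in the 4-week graft against 1491 untransplanted in CD39/CD55, and 388 in the 6-week graft against 1584 untransplanted in CD39/CD46/CD55/TBM, a fold change of -1.81 on the log2 scale (SE 0.42, adjusted p = 0.0303). RFC4, a subunit of the loader that places PCNA on DNA, had 290 counts in the 4-week graft against 1052 untransplanted in CD39/CD55, and 178 in the 6-week graft against 727 untransplanted in CD39/CD46/CD55/TBM, a fold change of -1.72 on the log2 scale (SE 0.42, adjusted p = 0.0378). DUT, which hydrolyses dUTP and so feeds thymidylate synthase, had 258 counts in the 4-week graft against 981 untransplanted in CD39/CD55, and 234 in the 6-week graft against 743 untransplanted in CD39/CD46/CD55/TBM, a fold change of -1.58 on the log2 scale (SE 0.40, adjusted p = 0.0466). For all 3 the grafts lay below the untransplanted kidneys without overlap.

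PRIM2 lost its call when the untransplanted kidney of CD39/CD46/CD55/TBM was left out (adjusted p = 0.0634, edgeR). RFC4 lost it without the untransplanted CD39/CD55 library or without the 6-week graft, and DUT without any 1 library other than the 4-week graft, with adjusted p up to 0.178 and 0.219. EIF4A2, which overlaps RFC4, had 1551 counts in the 4-week graft against 3503 untransplanted in CD39/CD55, and 1218 in the 6-week graft against 6049 untransplanted in CD39/CD46/CD55/TBM. LOC102161909, a non-coding gene that overlaps DUT, had 970 counts in the 4-week graft against 1293 untransplanted in CD39/CD55. It had 1271 in the 6-week graft against 1520 untransplanted in CD39/CD46/CD55/TBM, and shared reads cannot be told apart. The median log2 ratio of the 44 genes was 0.11 for CD39/CD55 and -0.31 for CD39/CD46/CD55/TBM.

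The G1 cyclins were divided between lower and higher genes. CCND1, cyclin D1, which couples growth signals to the cell cycle (chromosome 2, 3621242 to 3633380), had 707 counts in the 4-week graft against 1630 untransplanted in CD39/CD55, and 356 in the 6-week graft against 1521 untransplanted in CD39/CD46/CD55/TBM. CCND2, cyclin D2, had 66 counts in the 4-week graft against 146 untransplanted in CD39/CD55, and 51 in the 6-week graft against 151 untransplanted in CD39/CD46/CD55/TBM. Both genes were lower in both grafts without overlap. In edgeR the fold change was -1.38 on the log2 scale (SE 0.43, adjusted p = 0.0965) for CCND1 and -1.13 on the log2 scale (SE 0.46, adjusted p = 0.195) for CCND2, neither past the threshold. CCND1 passed in 4 of 9 alternative fits, with adjusted p from 0.00441 to 0.379, and was called lower in both genotypes, at -1.06 (95% interval -1.19 to -0.93) for CD39/CD55 and -1.80 (95% interval -1.98 to -1.64) for CD39/CD46/CD55/TBM. Scaled by total count its ratio for CD39/CD55 was -0.92, which is under 2-fold and no call.

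CCND3, cyclin D3, which came from a list of regulators and is not among the 39, had 692 counts in the 4-week graft against 232 untransplanted in CD39/CD55, and 1128 in the 6-week graft against 257 untransplanted in CD39/CD46/CD55/TBM. Both grafts lay above both untransplanted kidneys. It rose with a fold change of 2.15 on the log2 scale (SE 0.45, adjusted p = 0.0215) in edgeR and passed in 8 of 9 alternative fits, but not without the untransplanted CD39/CD55 library (adjusted p = 0.0845). TAF8, which overlaps CCND3, had 186 counts in the 4-week graft against 239 untransplanted in CD39/CD55, and 287 in the 6-week graft against 169 untransplanted in CD39/CD46/CD55/TBM.

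The E-type cyclins act with CDK2 at the entry into S phase. CCNE2 had 71 counts in the 4-week graft against 34 untransplanted in CD39/CD55, and 67 in the 6-week graft against 47 untransplanted in CD39/CD46/CD55/TBM. Both grafts were above both untransplanted kidneys, with log2 ratios of 1.20 (95% interval 0.60 to 1.85) for CD39/CD55 and 0.80 (95% interval 0.24 to 1.37) for CD39/CD46/CD55/TBM, and edgeR gave a fold change of 0.98 on the log2 scale (SE 0.52, adjusted p = 0.321). INTS8, which overlaps CCNE2, had 173 counts in the 4-week graft against 121 untransplanted in CD39/CD55, and 417 in the 6-week graft against 152 untransplanted in CD39/CD46/CD55/TBM. CCNE1 had 33 counts in the 4-week graft against 33 untransplanted in CD39/CD55, and 32 in the 6-week graft against 9 untransplanted in CD39/CD46/CD55/TBM. Its ratio of 2.06 (95% interval 1.02 to 3.37) in CD39/CD46/CD55/TBM rests on the low count of the untransplanted kidney, and in CD39/CD55 the ratio was 0.15.

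**Figure D3:**
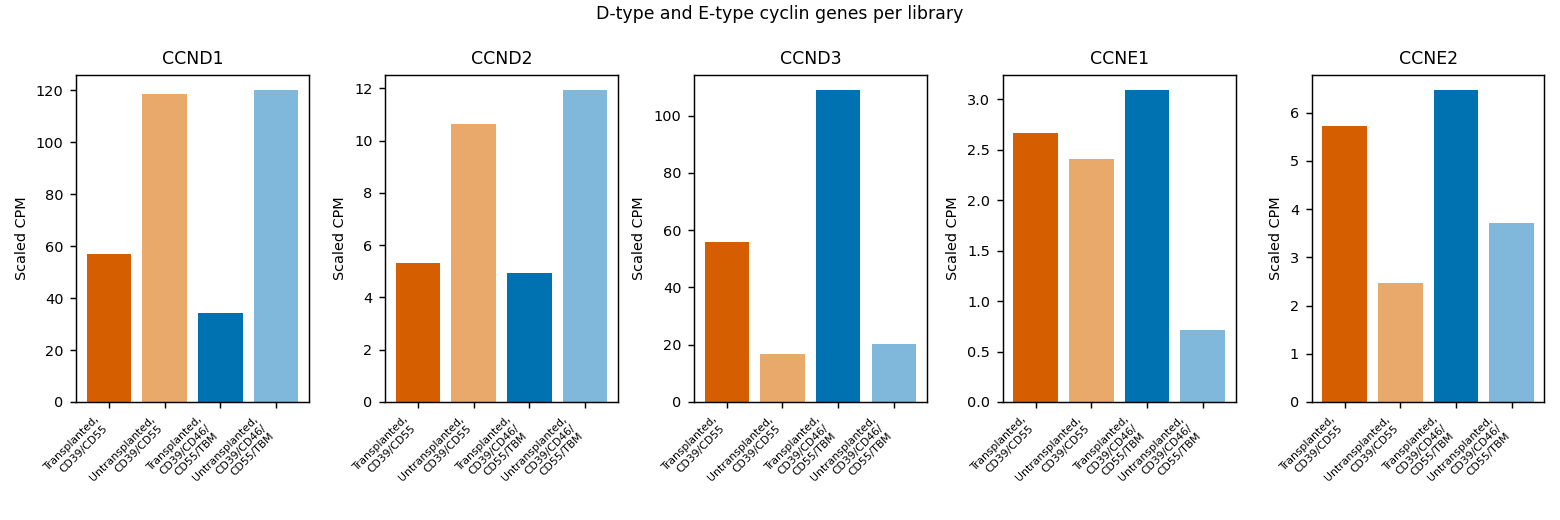
TMM-scaled CPM of the D-type and E-type cyclin genes, 1 bar per library, each panel with its own axis from 0. CCND1 and CCND2 are lower and CCND3, CCNE1 and CCNE2 higher in both grafts than in either untransplanted kidney; of these 5, CCND3 passed edgeR's test.

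Of 46 regulators listed, 43 were measured. In edgeR's test CCND3 was the 1 that rose and none fell, beside 1.24% and 2.71% over all genes. The median log2 ratio of the 43 regulators was -0.02 for CD39/CD55 and 0.37 for CD39/CD46/CD55/TBM. Besides CCND3, MYBL2, SKP2 and CHEK2 were called higher in both genotypes, as were 5.88% of all genes. MYBL2, a transcription factor of the mitotic programme, had 23 counts in the 4-week graft against 5 untransplanted in CD39/CD55, and 53 in the 6-week graft against 9 untransplanted in CD39/CD46/CD55/TBM, a fold change of 2.68 on the log2 scale (SE 0.79, adjusted p = 0.0806) in edgeR. SKP2, which targets the inhibitor CDKN1B for breakdown, had 49 counts in the 4-week graft against 22 untransplanted in CD39/CD55, and 67 in the 6-week graft against 25 untransplanted in CD39/CD46/CD55/TBM, a fold change of 1.54 on the log2 scale (SE 0.58, adjusted p = 0.162). The checkpoint kinase gene CHEK2 had 376 counts in the 4-week graft against 196 untransplanted in CD39/CD55, and 659 in the 6-week graft against 276 untransplanted in CD39/CD46/CD55/TBM, a fold change of 1.38 on the log2 scale (SE 0.47, adjusted p = 0.123). In all 3 the grafts lay above the untransplanted kidneys, and none passed the threshold. TTC28, which overlaps CHEK2, had 810 counts in the 4-week graft against 423 untransplanted in CD39/CD55, and 1043 in the 6-week graft against 605 untransplanted in CD39/CD46/CD55/TBM.

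The mitosis genes did not move together on transplantation. In CD39/CD55, 6 of 23 were called lower in the graft and none higher, beside 13.7% lower and 13.2% higher over all genes, with a median log2 ratio of -0.56. In CD39/CD46/CD55/TBM 2 were called higher and 2 lower, beside 15.9% and 16.3% over all genes, with a median of 0.26. None was called in the same direction in both genotypes. None of the 23 passed edgeR's test over both genotypes or had an unadjusted p under 0.05, and none passed under DESeq2 or limma voom. Without the 4-week graft AURKA passed as higher, and without the 6-week graft TOP2A passed as lower.

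BIRC5, survivin, a subunit of the chromosomal passenger complex, had 7 counts in the 4-week graft against 55 untransplanted in CD39/CD55, and 26 in the 6-week graft against 41 untransplanted in CD39/CD46/CD55/TBM. TOP2A, the topoisomerase that untangles sister chromosomes (chromosome 12, 22001300 to 22028452), had 29 counts in the 4-week graft against 125 untransplanted in CD39/CD55, and 135 in the 6-week graft against 213 untransplanted in CD39/CD46/CD55/TBM. CENPF, a kinetochore protein gene (chromosome 9, 128948386 to 129012241), had 28 counts in the 4-week graft against 96 untransplanted in CD39/CD55, and 153 in the 6-week graft against 156 untransplanted in CD39/CD46/CD55/TBM. The 4-week graft was the lowest of the 4 libraries for all 3 genes. The log2 ratios in CD39/CD55 were -2.74 (95% interval -4.20 to -1.69) for BIRC5, -1.94 (95% interval -2.59 to -1.37) for TOP2A and -1.61 (95% interval -2.29 to -1.01) for CENPF, all called lower, against -0.36, -0.37 and 0.26 in CD39/CD46/CD55/TBM.

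MKI67, the gene of the proliferation antigen Ki-67, had 15 counts in the 4-week graft against 39 untransplanted in CD39/CD55, and 26 in the 6-week graft against 18 untransplanted in CD39/CD46/CD55/TBM. UBE2C, a ubiquitin-conjugating enzyme of the anaphase-promoting complex, had 11 counts in the 4-week graft against 36 untransplanted in CD39/CD55, and 33 in the 6-week graft against 24 untransplanted in CD39/CD46/CD55/TBM. PLK1, a mitotic kinase, had 9 counts in the 4-week graft against 31 untransplanted in CD39/CD55, and 13 in the 6-week graft against 12 untransplanted in CD39/CD46/CD55/TBM. MKI67, UBE2C and PLK1 were all called lower in CD39/CD55, at -1.20 (95% interval -2.19 to -0.34) for MKI67, -1.52 (95% interval -2.68 to -0.56) for UBE2C and -1.58 (95% interval -2.89 to -0.53) for PLK1. In CD39/CD46/CD55/TBM the same genes stood at 0.81 (95% interval -0.10 to 1.77), 0.74 (95% interval -0.05 to 1.57) and 0.40 (95% interval -0.84 to 1.67), where each interval included 0. ERN2, which overlaps PLK1, had 8 counts in the 4-week graft against 25 untransplanted in CD39/CD55, and 14 in the 6-week graft against 13 untransplanted in CD39/CD46/CD55/TBM, and shared reads cannot be told apart.

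In the 6-week graft AURKA and FOXM1 were called higher than in the untransplanted kidney of CD39/CD46/CD55/TBM, and AURKB and CDK1 lower. AURKA, the kinase of the spindle poles, had 50 counts in the 6-week graft against 14 untransplanted in CD39/CD46/CD55/TBM, and 17 in the 4-week graft against 13 untransplanted in CD39/CD55. FOXM1, a transcription factor of mitotic genes, had 15 counts in the 6-week graft against 6 untransplanted in CD39/CD46/CD55/TBM, and 7 in the 4-week graft against 7 untransplanted in CD39/CD55. For AURKA and FOXM1 the 6-week graft was the highest library. CSTF1, which overlaps AURKA, had 91 counts in the 6-week graft against 141 untransplanted in CD39/CD46/CD55/TBM. It had 139 in the 4-week graft against 243 untransplanted in CD39/CD55, and shared reads cannot be told apart. AURKB, the kinase of the passenger complex, had 38 counts in the 6-week graft against 123 untransplanted in CD39/CD46/CD55/TBM, and 89 in the 4-week graft against 90 untransplanted in CD39/CD55, and 4 transfer RNA genes lie within its annotated span. CDK1, the kinase that drives entry into mitosis, had 13 counts in the 6-week graft against 33 untransplanted in CD39/CD46/CD55/TBM, and 2 in the 4-week graft against 10 untransplanted in CD39/CD55.

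NUSAP1, a spindle microtubule protein gene (chromosome 1, 129992797 to 130065641), held most of the mitosis counts, with 1695 counts in the 4-week graft against 2253 untransplanted in CD39/CD55, and 1556 in the 6-week graft against 1786 untransplanted in CD39/CD46/CD55/TBM. OIP5 lies inside its annotated span and had 1230 counts in the 4-week graft against 1573 untransplanted in CD39/CD55, and 1047 in the 6-week graft against 1245 untransplanted in CD39/CD46/CD55/TBM. NDUFAF1, which also overlaps NUSAP1, had 218 counts in the 4-week graft against 504 untransplanted in CD39/CD55, and 155 in the 6-week graft against 568 untransplanted in CD39/CD46/CD55/TBM. Reads of these 3 genes cannot be told apart where they overlap, so mitosis sums are also given without NUSAP1. In all, 13 of the 38 genes on placed chromosomes overlap another annotated gene. MCM5 is on no placed chromosome, so its overlaps were not assessed. CCNA2, CCNB1, CCNB2, CDC20, KIF11 and KIF20A, which encode cyclins of S phase and mitosis, an activator of the anaphase-promoting complex and spindle motors, were called in neither genotype, with log2 ratios from -0.56 to 0.97 for CD39/CD55 and from -0.79 to 0.87 for CD39/CD46/CD55/TBM.

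Without NUSAP1 the mitosis genes summed to 44.9 CPM (41.2 to 48.8) in the 4-week graft and 65.9 CPM (61.7 to 70.3) in the untransplanted kidney of CD39/CD55. They summed to 99.6 CPM (93.7 to 106) in the 6-week graft and 95.7 CPM (90.3 to 101) in the untransplanted kidney of CD39/CD46/CD55/TBM. The log2 ratio of these sums was -0.55 (-0.71 to -0.40) for CD39/CD55 and 0.06 (-0.06 to 0.18) for CD39/CD46/CD55/TBM. Counts of mitosis genes without NUSAP1 per count of replication genes without TYMS, a quotient that needs no scaling between libraries, came to 0.543 in the 4-week graft and 0.532 in the untransplanted kidney of CD39/CD55. It came to 1.13 in the 6-week graft and 0.922 in the untransplanted kidney of CD39/CD46/CD55/TBM.

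**Figure D4:**
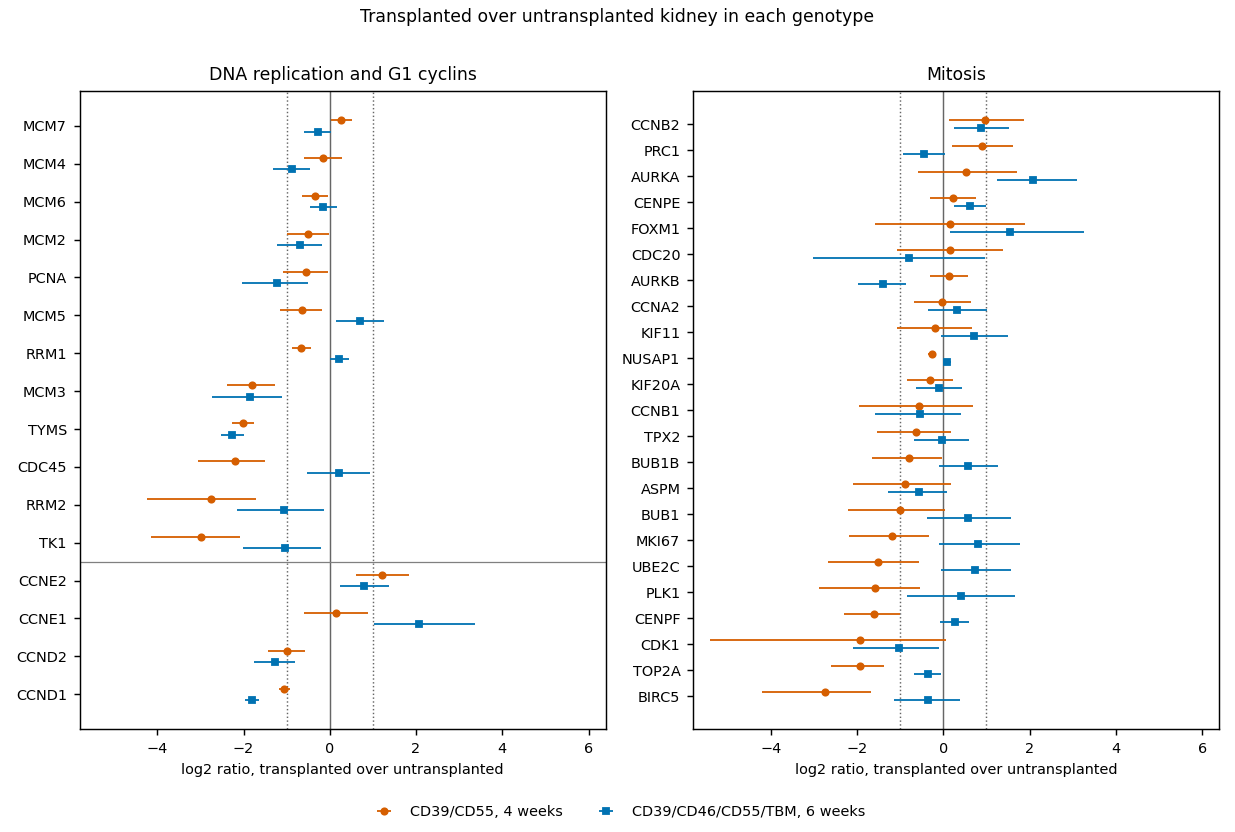
Log2 ratio of transplanted over untransplanted kidney for each cell cycle gene in CD39/CD55 (orange circles) and CD39/CD46/CD55/TBM (blue squares), with exact 95% counting intervals; dotted lines mark 2-fold. TYMS, MCM3, TK1, RRM2 and CCND1 lie beyond 2-fold below 0 in both genotypes, whereas 16 of 23 orange points of the mitosis genes lie below 0 and 13 of 23 blue ones above.

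Other mitosis genes came from a list of 50, of which 46 were measured, and none passed edgeR's test over both genotypes. At an unadjusted p under 0.05, 3 were lower and none higher, beside 10.7% and 8.99% over all genes. DESeq2 called 1 lower and limma voom none, whereas CDCA2, CDCA3 and PBK were called lower both with the genotype as a block and without the filter on low counts. The same 3 of 46 were lower in both genotypes by ratio and interval, beside 7.63% of all genes. PBK, a mitotic protein kinase, had 47 counts in the 4-week graft against 163 untransplanted in CD39/CD55, and 39 in the 6-week graft against 159 untransplanted in CD39/CD46/CD55/TBM, a fold change of -1.69 on the log2 scale (SE 0.47, adjusted p = 0.0656) in edgeR. CDCA3, which helps trigger mitotic entry, had 5 counts in the 4-week graft against 54 untransplanted in CD39/CD55, and 13 in the 6-week graft against 42 untransplanted in CD39/CD46/CD55/TBM, a fold change of -2.14 on the log2 scale (SE 0.72, adjusted p = 0.122). CDCA2, which targets a phosphatase to chromatin, had 4 counts in the 4-week graft against 47 untransplanted in CD39/CD55, and 11 in the 6-week graft against 43 untransplanted in CD39/CD46/CD55/TBM, a fold change of -2.31 on the log2 scale (SE 0.75, adjusted p = 0.109). Over these 46 genes the median log2 ratio was -0.11 for CD39/CD55 and 0.09 for CD39/CD46/CD55/TBM.

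The genotypes were then compared, which is the comparison the series was designed for. Between the grafts, most of the 23 mitosis genes were higher in the 6-week CD39/CD46/CD55/TBM graft. Of the 23, 12 were called higher and none lower, with a median log2 ratio of 1.20, beside 11.0% called in each direction and a median of 0.01 over all genes. The 12 were CDK1, CENPF, TOP2A, BIRC5, UBE2C, AURKA, ASPM, CENPE, BUB1B, BUB1, TPX2 and MKI67. Scaled by total counts, 11 were called higher and 1 lower. Of the 14 mitosis genes that overlap no other gene, 9 were called higher and none lower. The shift was smaller in the list of other mitosis genes, where 11 of 46 were called higher and 1 lower, with a median log2 ratio of 0.49.

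CENPF had 153 counts in the 6-week and 28 in the 4-week graft, a log2 ratio of 2.69 (95% interval 2.12 to 3.34). TOP2A had 135 counts in the 6-week and 29 in the 4-week graft, a ratio of 2.46 (95% interval 1.89 to 3.11). CENPE, a motor of the kinetochore, had 134 counts in the 6-week and 62 in the 4-week graft, a ratio of 1.36 (95% interval 0.93 to 1.83). The intervals of these 3 lay close to or beyond 2-fold. BUB1B, a protein of the spindle checkpoint, had 44 counts in the 6-week and 21 in the 4-week graft, and its partner kinase BUB1 had 22 counts in the 6-week and 11 in the 4-week graft. ASPM, which organises spindle poles, had 30 counts in the 6-week and 11 in the 4-week graft, and TPX2, which activates AURKA, had 39 counts in the 6-week and 20 in the 4-week graft. LOC106505039, a non-coding gene that overlaps CENPF, had 108 counts in the 6-week and 22 in the 4-week graft, and shared reads cannot be told apart.

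Of 12 replication genes, CDC45 was called higher in the 6-week graft and PCNA lower, 7 lay above 0 and 5 below, and the median log2 ratio was 0.13. CDC45 had 33 counts in the 6-week and 18 in the 4-week graft, a ratio of 1.11 (95% interval 0.26 to 2.05). PCNA had 21 counts in the 6-week and 52 in the 4-week graft, a ratio of -1.03 (95% interval -1.86 to -0.29), and with a prior count of 2 it was no longer called. RRM2 at 1.11 (95% interval -0.28 to 2.72), TK1 at 0.91 (95% interval -0.29 to 2.24) and RRM1 at 0.58 (95% interval 0.35 to 0.82) were not called. Replication sums were 101 CPM (95.2 to 108) in the 6-week and 95.7 CPM (90.3 to 101) in the 4-week graft, a log2 ratio of 0.08 (-0.04 to 0.20), against 1.15 for the mitosis sums without NUSAP1. None of the 4 G1 cyclins was called, and CCND1 had 356 counts in the 6-week and 707 in the 4-week graft, a ratio of -0.73 (95% interval -0.92 to -0.55).

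Leukocyte markers were few in both grafts. Macrophage markers summed to 8.79 CPM in the 6-week and 4.84 CPM in the 4-week graft, T and NK cell markers to 1.74 and 1.21 CPM, and B and plasma cell markers to 0.58 and 2.75 CPM in the same order. Proximal tubule markers summed to 2906 CPM in the 6-week and 5644 CPM in the 4-week graft. The part of these cells in the mitosis result was not tested, and how reads of recipient cells were counted is unknown.

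Between untransplanted kidneys 4 of 23 mitosis genes were called higher in CD39/CD46/CD55/TBM and 1 lower, with a median log2 ratio of 0.10, beside 8.17% called higher and 7.88% lower over all genes. Without NUSAP1 the mitosis sums were 95.7 CPM in CD39/CD46/CD55/TBM and 65.9 CPM in CD39/CD55. Their log2 ratio was 0.54 (0.41 to 0.66), against 1.15 between the grafts. PRC1, which bundles microtubules of the central spindle, had 98 counts in CD39/CD46/CD55/TBM and 28 in CD39/CD55, a ratio of 1.91 (95% interval 1.31 to 2.59). LOC110261561, a non-coding gene that overlaps PRC1, had 76 counts in CD39/CD46/CD55/TBM and 35 in CD39/CD55. CDK1, ASPM and CCNB2, a B-type cyclin, were also called higher, at 1.79 (95% interval 0.79 to 3.03), 1.36 (95% interval 0.65 to 2.15) and 1.02 (95% interval 0.20 to 1.92). PLK1 was called lower, at -1.22 (95% interval -2.35 to -0.25). TOP2A and CENPF, at 0.88 (95% interval 0.56 to 1.22) and 0.82 (95% interval 0.44 to 1.20), were under 2-fold.

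Of the replication genes 2 were called lower in the untransplanted kidney of CD39/CD46/CD55/TBM and none higher, namely CDC45 at -1.29 (95% interval -1.91 to -0.73) and TK1 at -1.02 (95% interval -1.60 to -0.49). Among G1 cyclins CCNE1 was called lower, at -1.70 (95% interval -3.01 to -0.66). The haemoglobin gene HBB, a marker of blood, had 2114 counts in CD39/CD46/CD55/TBM and 110 in CD39/CD55, and its part in these values was not tested. Over both states none of the 39 cell cycle genes passed edgeR's test of genotype, none had an unadjusted p under 0.05, and neither DESeq2 nor limma voom called any. Over all genes edgeR's test of genotype called 0%, with 1.05% higher and 1.43% lower at an unadjusted p under 0.05 (190 and 259 genes).

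**Figure D5:**
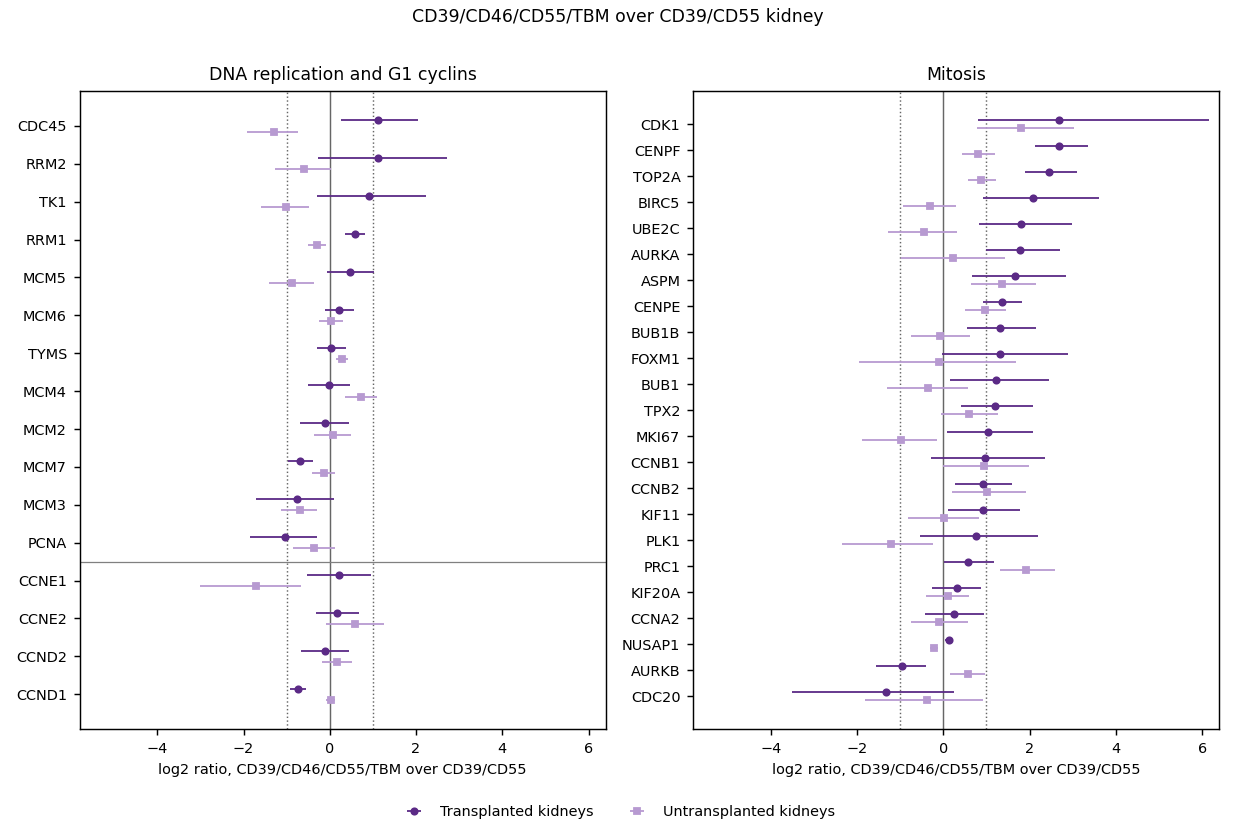
Log2 ratio of CD39/CD46/CD55/TBM over CD39/CD55 for each cell cycle gene, between grafts (dark circles) and between untransplanted kidneys (light squares), with exact 95% counting intervals; dotted lines mark 2-fold. Of the 23 mitosis genes 21 dark circles lie above 0 and 12 are called higher, while the replication genes lie on both sides with a median of 0.13.

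The difference between the transplantation changes was taken as the log2 ratio in CD39/CD46/CD55/TBM minus that in CD39/CD55, with a 95% Wald counting interval. Of 23 mitosis genes 9 were called higher and 2 lower, with a median of 0.90, beside 10.4% and 11.5% over all genes. BIRC5 stood at 2.38 (95% interval 1.08 to 3.69), CENPF at 1.87 (95% interval 1.19 to 2.56) and TOP2A at 1.57 (95% interval 0.92 to 2.23). UBE2C, MKI67, PLK1, BUB1, AURKA and BUB1B were the others called higher, between 1.37 and 2.26, and AURKB and PRC1 were called lower. Of 12 replication genes 4 were called higher and none lower: CDC45 at 2.41 (95% interval 1.42 to 3.40), TK1 at 1.93 (95% interval 0.70 to 3.17), RRM2 at 1.70 (95% interval 0.27 to 3.13) and MCM5 at 1.35 (95% interval 0.63 to 2.06). The median of the 12 was 0.06, with 6 above 0 and 6 below. CCNE1 was the G1 cyclin called higher, at 1.91 (95% interval 0.66 to 3.17). In the other lists, 4 of 44 replication genes were called higher and 9 lower, with a median of -0.18. Of the 46 other mitosis genes 9 were called higher and 3 lower, with a median of 0.26. The comparisons within genotypes, between genotypes and of the changes use the same 4 libraries, so they are not separate evidence.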

How the data were processed

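RNA from 4 kidneys, 1 per group, was analysed from the whole-number read counts per gene symbol that the authors deposited without normalization. Extraction used phenol and chloroform and libraries a Lexogen QuantSeq kit, per the labels' protocols, and the submitters' processing notes list Bowtie2, bedtools and Sscrofa11.1. Versions, strand, multi-mapping and recipient reads were not described there. Counts of 81 symbols found on several lines were summed, leaving 26466 symbols, and coordinates and neighbours within 500 bases came from RefSeq for Sscrofa11.1.

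Genes with 10 or more counts in a library were kept. Ratios used TMM-scaled counts and a prior count of 0.5, with Clopper-Pearson conditional binomial intervals. Grafts against untransplanted kidneys, and the genotypes, were tested 2 libraries against 2 with edgeR 4.0.16 (quasi-likelihood, Benjamini-Hochberg over all genes, threshold 0.05). The SE is the fold change over the square root of F and restates that test. Libraries on a side differ in genotype or state, and p-values measure the spread between these libraries. Alternatives used DESeq2 1.42.0, limma 3.58.1, other scalings, filters and folds, and single libraries left out. The edgeR and interval scripts were tested on simulated data. Without molecular identifiers, intervals cover counting error only.

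Genes given in full passed a test, were called in the same direction in both genotypes, between genotypes or for the difference of changes, or were among the 3 with the most counts in a role. From the other lists, genes past the test or called in both genotypes were given. Genes and lists were chosen with earlier results of these data known. Promoter motifs, TIMELESS and CDKN2A were not analysed here.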

Additional observations from a re-analysis of the deposited data

Results flagged for a closer look

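In 10 cell cycle genes the transplantation change had opposite signs in the 2 genotypes, and the log2 difference of the changes (CD39/CD46/CD55/TBM minus CD39/CD55) was at least 2-fold with a counting interval excluding 0. With 1 library per group the difference was not tested against replicate spread. Of these, 8 were higher in CD39/CD46/CD55/TBM: CDC45 by 2.41, UBE2C by 2.26, MKI67 by 2.01, PLK1 by 1.98, CENPF by 1.87, BUB1 by 1.57, BUB1B by 1.37 and MCM5 by 1.35. The other two were AURKB at -1.53 and PRC1 at -1.32, and both overlap other annotated genes, as do PLK1 and CENPF. Overlaps of MCM5, which is on no placed chromosome, were not assessed.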

How the results depend on the processing

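No paired analysis was possible because each group has 1 library and no replicate numbers pair animals; the fit with the genotype as a block compares graft with untransplanted kidney within each genotype. In the test of grafts against untransplanted kidneys 1 of 39 genes fell. With the genotype as a block 4 fell (TYMS, MCM3, TK1 and CCND1), without the filter on low counts 4, and by DESeq2's Wald test 2, while leaving out 1 library gave 1 to 3 lower and 0 to 1 higher. Within CD39/CD55 1 gene was called higher and 12 lower, against 3 and 11 scaled by total count and 3 and 10 scaled by total count without the most abundant loci and mitochondrial genes. Within CD39/CD46/CD55/TBM 3 and 9 became 4 and 6 under the last of these scalings. Between untransplanted kidneys 4 and 4 became 3 and 5 by total count and 6 and 3 under the last scaling. The scaling by total count shifted the median of all genes in CD39/CD55 to 0.16, and the last scaling to 0.26. Between grafts 1 gene was called lower, 2 by total count and 0 with a prior count of 2. At a fold of 1.5, 3 genes were called higher within CD39/CD55, 7 within CD39/CD46/CD55/TBM, 9 higher and 7 lower between untransplanted kidneys, and 4 lower between grafts. Among genes with no overlapping gene, an alternative chosen after seeing the data, 0 were called higher within CD39/CD55, 2 higher between untransplanted kidneys and 0 lower for the difference of changes. MCM5, whose overlaps were not assessed, was kept among them.

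The log2 ratio of the replication sums in CD39/CD55, -0.88, became -0.75 by total count, -0.65 under the last scaling and -0.58 without TYMS. In CD39/CD46/CD55/TBM -0.73 became -0.58 and, without TYMS, -0.24. Between untransplanted kidneys -0.07 became 0.020 and, without TYMS, -0.25. That of the mitosis sums in CD39/CD55, -0.34, became -0.20 by total count, -0.10 under the last scaling and -0.55 without NUSAP1. In CD39/CD46/CD55/TBM 0.08 became 0.22 under the last scaling. Between untransplanted kidneys 0.04 became 0.14 and, without NUSAP1, 0.54, and between grafts 0.46 became 0.36 by total count and 1.15 without NUSAP1. The sums without TYMS or NUSAP1 were also chosen after seeing the data. The cause of these moves was not tested. The planned count of promoter motifs was not run.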
